A study of Mus musculus with 12 samples.

Results

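The HSP90 and HSP40 chaperone system of skeletal muscle was examined through 10 genes: the HSP90 genes Hsp90aa1, Hsp90ab1, Hsp90b1 and Trap1, the HSP40 genes Dnaja1 and Dnajb1, and the co-chaperone genes Ahsa1, Bag3, Stip1 and Chordc1. They were found by gene name in the scanner files, which held 17 probes for them among 41174 gene probes. Quadriceps RNA from 12 mice was hybridised to 12 one-colour Agilent arrays, 1 animal to an array. The 6 exercised mice had trained on a motorised treadmill for 4 weeks and their muscle was taken 3 hours after the last bout. The 6 sedentary mice were untrained controls. All animals were C57BL/6J males aged 13 weeks with no allele or other agent named. Every exercised mouse had both the regular training and the last bout, so these cannot be told apart as the source of a difference. The labels also give no time of day and no time since handling for the sedentary mice. An array is named by the set and the animal in its title, so that s1m5 is animal 5 of the set called group1.

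HSP90 proteins are dimeric ATP-driven chaperones that finish the folding of client proteins such as steroid receptors and kinases, and in muscle they work with UNC45B on myosin. HSP40 proteins carry a J domain that brings unfolded chains to HSP70 and triggers its ATP hydrolysis. STIP1 (HOP) bridges HSP70 and HSP90 for hand-over of a client, AHSA1 speeds up the HSP90 ATPase, CHORDC1 binds HSP90, and BAG3 releases nucleotide from HSP70 and directs damaged proteins of the Z-disc to autophagy. Many of these genes are known targets of heat shock factor 1, whereas Hsp90b1 and Trap1 encode the HSP90 paralogues of the endoplasmic reticulum and of mitochondria.

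Levels are given as the signal of a probe divided by the 75th percentile of its array, written "times P75", and differences as log2 of exercised minus sedentary, with the standard error after ±. Levels of different probes depend on probe chemistry and cannot be ranked against each other. Arrays had a 75th percentile of 179.5 to 230.1 intensity units in exercised mice and of 167.2 to 237 in sedentary mice, and 22420 to 24863 against 21728 to 25246 probes well above background. Of the 17 probes 16 were well above background on 12 of 12 arrays and unsaturated, which covered all 10 genes, and they were tested among 22919 probes kept. The remaining probe of Stip1 (A_52_P57249) was above background on 0 arrays and was not tested. All 7 muscle fibre markers tested (Acta1, Ckm, Myh1, Myh2, Myh4, Tnnt3 and Mb) were well above background on every array, and 0 of them was called. In RNA of whole muscle, a change in the share of a cell type and a change of RNA per cell cannot be told apart.

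Exercised muscle had more mRNA of the inducible cytosolic HSP90 gene and of both HSP40 genes, by 2.12-fold for Hsp90aa1, 2.16-fold for Dnaja1 and 2.19-fold for Dnajb1. Of the 10 genes, counted through the probe with the highest mean, 3 were called higher (Hsp90aa1, Dnaja1 and Dnajb1) and 0 lower, where 1.76% of 16464 genes and unnamed probes were called higher and 1.76% lower. By probe, 6 of 16 were called higher and 0 lower, against 1.81% called higher and 1.51% called lower of all probes tested. The log2 difference was above 0 for 9 of 10 genes and 15 of 16 probes, with a median of 0.20 over the genes and 0.29 over the probes. The medians over all genes and all probes tested were -0.03 and -0.02.

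**Figure D1:**
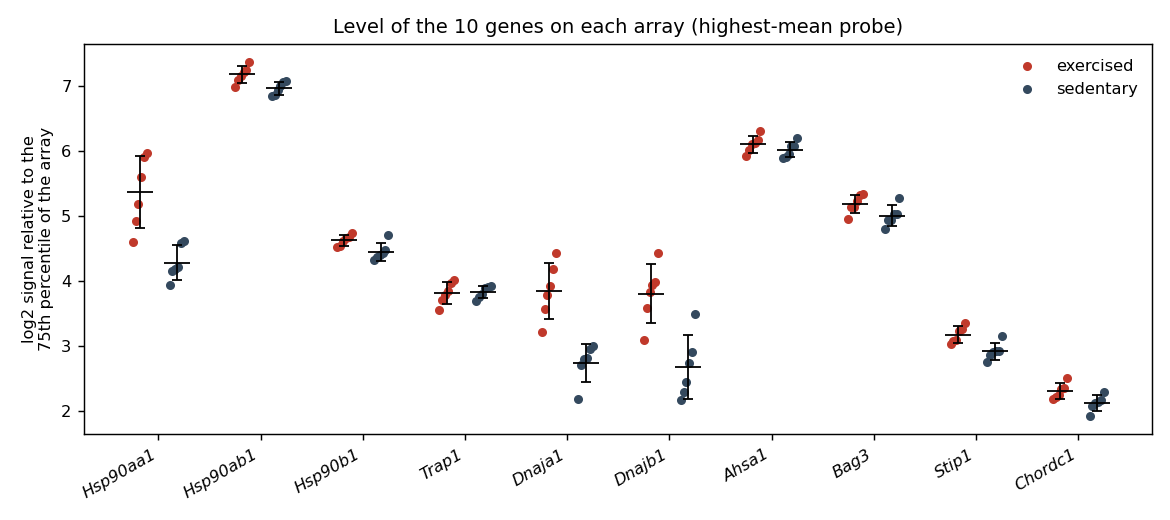
Level of each of the 10 genes on each array (y axis, log2 signal relative to the array's 75th percentile; x axis, gene), with exercised mice left of sedentary mice. Points are arrays, and bars are the mean ± SD of 6 arrays. The Dnaja1 groups do not overlap, Hsp90aa1 and Dnajb1 overlap by 1 array, and heights of different genes are not comparable.

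Hsp90aa1 encodes HSP90 alpha, the stress-inducible cytosolic paralogue. Its probe A_51_P290231 (NM_010480, chr12:111929254-111929313, minus strand, mm9) read 24.2, 42.6 and 62.6 times P75 (lowest, median, highest) in exercised mice and 15.3, 18.4 and 24.6 in sedentary mice. In 5 of 6 exercised mice the level was above every sedentary mouse. The exception was exercised s1m1 at 24.2, just under sedentary s2m5 at 24.6. The log2 difference was 1.08 ± 0.23 (SE, n = 6 and 6), a 2.12-fold higher level (95% interval 1.50 to 2.99, limma adjusted p = 0.0218). Within slides 1, 2 and 3 it was 1.37, 1.12 and 0.90. Slide 1 held 1 exercised array and slide 2 held 1 sedentary array. Values within those slides, here and below, thus have a single mouse in 1 of the groups. With slide as a block the log2 difference was 1.11 with an adjusted p of 0.0735. The call was also lost without sedentary s2m2 (adjusted p = 0.0505) or sedentary s2m4 (adjusted p = 0.0513).

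Hsp90ab1 encodes HSP90 beta, the constitutive cytosolic paralogue. Its probe A_51_P485043 read 127.5, 146.1 and 166.3 times P75 in exercised mice and 115.3, 125.7 and 135.9 in sedentary mice. The groups overlapped, with 5 of 6 exercised mice above all sedentary mice. The log2 difference was 0.21 ± 0.08 (1.16-fold, 95% interval 1.03 to 1.30, adjusted p = 0.173). A second probe, A_52_P257204, gave 12.8, 14.2 and 17.1 in exercised mice and 11.2, 12.1 and 14.6 in sedentary mice. Its log2 difference was 0.25 ± 0.09 (adjusted p = 0.199), so that neither probe was called. With normexp correction on a capped local background the second probe was called (adjusted p = 0.0479).

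The endoplasmic reticulum paralogue Hsp90b1 (GRP94) was measured by a pair of probes that differed in size of effect. Probe A_52_P624149 read 23.0, 24.8 and 26.8 times P75 in exercised mice and 20.0, 21.3 and 26.1 in sedentary mice, a log2 difference of 0.18 ± 0.07 (adjusted p = 0.261). Probe A_52_P590546 read 7.01, 7.43 and 9.14 in exercised mice and 5.14, 5.38 and 7.91 in sedentary mice, a log2 difference of 0.43 ± 0.12 (1.35-fold, 95% interval 1.12 to 1.61, adjusted p = 0.0756). On both probes sedentary s1m1 was the high sedentary array. Without it the second probe was called, with a log2 difference of 0.52 (adjusted p = 0.0195).

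Trap1, the mitochondrial paralogue, did not separate the groups at all. It read 11.7, 14.1 and 16.2 times P75 in exercised mice and 12.9, 14.4 and 15.2 in sedentary mice. Both the highest and the lowest array were exercised, s2m1 and s2m5. Its log2 difference came to -0.01 ± 0.08, and its 95% interval ran from -0.20 to 0.17 (adjusted p = 0.964).

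The response of Hsp90aa1 was set against that of each other HSP90 gene by the difference of the paralogues' log2 levels within each array, with a two-sided exact permutation test over all assignments of 6 of the 12 arrays. Adjusted p-values are over 4 pairs, the HSP40 pair included, and the smallest raw p the test allows is 0.00216. The response of Hsp90aa1 exceeded that of Hsp90ab1 by 0.87 log2 units (95% interval 0.37 to 1.37, exact p = 0.00866, adjusted 0.0115). Over Hsp90b1 the excess was 0.91 (0.41 to 1.40, exact p = 0.00433, adjusted 0.0115), and over Trap1 it was 1.097 (0.42 to 1.77, exact p = 0.00649, adjusted 0.0115). Each gene stood by its probe with the highest mean. The second probes of Hsp90ab1 and Hsp90b1, with log2 differences of 0.25 and 0.43, were not used here. In each comparison 5 of 6 exercised arrays lay above all sedentary arrays. Scaling between arrays cancels in these differences except under quantile scaling, and within the 3 slides the excess over Hsp90ab1 was 1.16, 0.87 and 0.63.

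The 60-base probes that lie farther upstream in their transcripts are shown for the HSP40 genes, which carry the call, and for both HSP90 genes with a second probe, which missed it. They are written 5′ to 3′ in lower case with no base marked. Their mm9 positions come from the annotation in the scanner files. The Dnaja1 probe maps to chr4:40677306-40678761 (plus strand), a span of 1456 bases for 60 bases of probe, and the Dnajb1 probe to chr8:86134225-86134284 (plus strand). The Hsp90ab1 probe maps to chr17:45706503-45706562 and the Hsp90b1 probe to chr10:86161329-86161388, both on the minus strand.
Dnaja1 A_52_P106429: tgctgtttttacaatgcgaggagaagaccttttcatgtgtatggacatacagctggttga
Dnajb1 A_52_P171663: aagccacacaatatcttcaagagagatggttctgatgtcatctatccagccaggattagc
Hsp90ab1 A_52_P257204: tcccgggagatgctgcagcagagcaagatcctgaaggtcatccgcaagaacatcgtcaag
Hsp90b1 A_52_P590546: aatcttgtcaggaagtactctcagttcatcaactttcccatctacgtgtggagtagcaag

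Dnaja1 encodes a class A HSP40 that feeds clients to cytosolic HSP70. The probe shown above, which had the highest mean of its 3 probes, read 9.27, 14.5 and 21.5 times P75 in exercised mice and 4.53, 6.98 and 7.98 in sedentary mice. Every exercised mouse lay above every sedentary mouse. The log2 difference was 1.11 ± 0.20 (2.16-fold, 95% interval 1.61 to 2.89, adjusted p = 0.00816), with 1.12, 1.17 and 0.87 within slides 1, 2 and 3. It remained called with slide as a block (adjusted p = 0.0456) and in 12 of 12 fits without 1 array.

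The other two Dnaja1 probes gave smaller differences with the same separation of the groups. Probe A_51_P303346 read 2.96, 4.20 and 5.23 times P75 in exercised mice and 1.96, 2.57 and 2.94 in sedentary mice, a log2 difference of 0.68 ± 0.14 (adjusted p = 0.0210). Probe A_52_P310225 read 0.408, 0.619 and 1.103 in exercised mice and 0.266, 0.384 and 0.395 in sedentary mice, a log2 difference of 0.82 ± 0.19 (adjusted p = 0.0374). On both probes exercised s1m1 lay only just above the highest sedentary mouse, at 2.96 against 2.94 on the first and at 0.408 against 0.395 on the second. Neither was called with slide as a block (adjusted p = 0.0721 and 0.121). Without exercised s1m5 the first was not called (adjusted p = 0.0512), and the second was called in 3 of 12 fits without 1 array (exercised s1m1, s2m3 or s2m4), with adjusted p from 0.0119 to 0.0784.

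Dnajb1 encodes HSP40 itself, the class B partner of inducible HSP70. Probe A_51_P153486 (NM_018808, chr8:86135660-86135719, plus strand, mm9) read 8.47, 14.7 and 21.5 times P75 in exercised mice and 4.47, 6.06 and 11.2 in sedentary mice. Sedentary s2m5, at 11.2, stood above the other sedentary mice and above exercised s1m1. Exercised minus sedentary came to 1.13 ± 0.24 in log2 (2.19-fold, 95% interval 1.52 to 3.17, adjusted p = 0.0242), and it was 1.14, 1.61 and 0.82 within the slides. It was called in 7 of 12 fits without 1 array. It was not called without exercised s2m1, exercised s2m5, sedentary s1m1, sedentary s1m5 or sedentary s2m2, with adjusted p up to 0.0548.

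On the second Dnajb1 probe, shown above, the levels were 0.774, 1.37 and 1.93 times P75 in exercised mice and 0.427, 0.543 and 0.676 in sedentary mice. There the groups did not overlap, and sedentary s2m5 did not stand apart. Its log2 difference came to 1.26 ± 0.20 (2.39-fold, 95% interval 1.77 to 3.23, adjusted p = 0.00459). This was the largest of the 16 probes, and 83 of the 22919 probes tested had a larger one. With slide as a block both Dnajb1 probes remained called (adjusted p = 0.0455 and 0.0185), so that 3 of the 16 probes were called higher in that fit, against 1.16% of all probes. On the probe of each gene with the highest mean, the responses of Dnaja1 and Dnajb1 differed by -0.02 log2 units (95% interval -0.48 to 0.43, exact permutation p = 0.913). For these probes the interval allows either gene to respond more by up to those amounts. With all kept probes of a gene averaged, the log2 differences were 0.87 for Dnaja1 and 1.195 for Dnajb1, and that gap was not tested.

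Across the 16 probes, groups that did not overlap were found for 4, the 3 Dnaja1 probes and the Dnajb1 probe shown above, each with exercised mice higher. Among all probes tested 1.46% had all exercised arrays above all sedentary arrays.

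**Figure D2:**
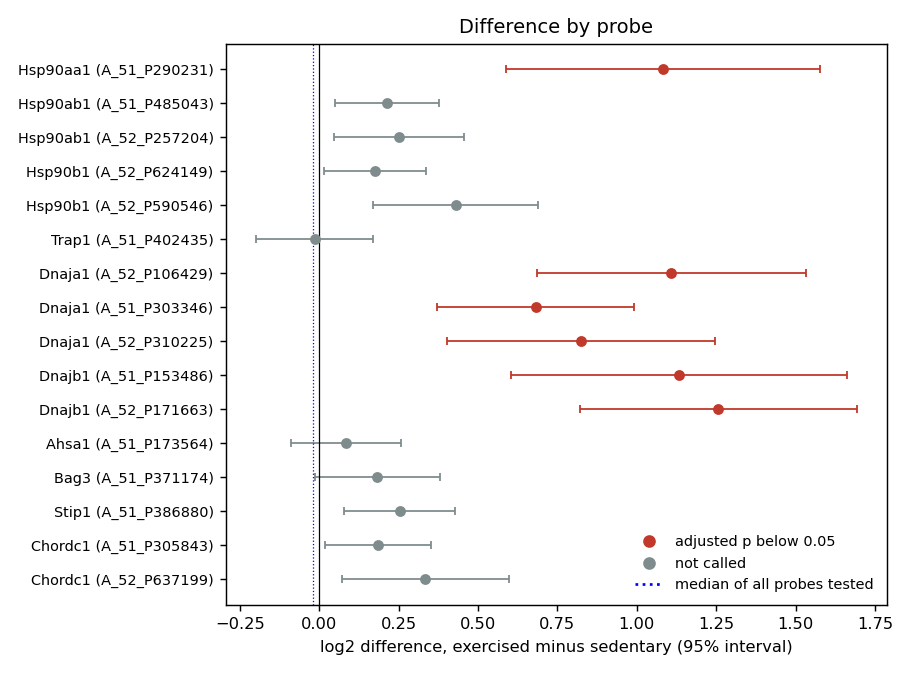
Log2 difference, exercised minus sedentary, with its 95% interval for each of the 16 probes tested (x axis, log2; y axis, gene and probe). The 6 probes called, in red, are those of Hsp90aa1, Dnaja1 and Dnajb1, and the dotted line at -0.02 is the median of all probes tested.

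None of the 4 co-chaperones was called. Stip1, the HSP70 to HSP90 adaptor, read 8.19, 8.92 and 10.3 times P75 in exercised mice and 6.74, 7.53 and 8.89 in sedentary mice on probe A_51_P386880. The groups overlapped, with 3 exercised mice above all sedentary mice, the highest of which was sedentary s2m5. The log2 difference was 0.25 ± 0.08 (1.19-fold, 95% interval 1.05 to 1.35, adjusted p = 0.127). Ahsa1, the activator of the HSP90 ATPase, read 60.6, 69.4 and 79.2 in exercised mice and 59.5, 64.9 and 73.7 in sedentary mice, and the groups overlapped over most of their range. Its log2 difference was 0.09 ± 0.08 (95% interval -0.09 to 0.26, adjusted p = 0.682).

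Bag3, the exchange factor of Z-disc protein clearance, read 31.1, 36.5 and 40.3 times P75 in exercised mice and 27.8, 31.8 and 38.9 in sedentary mice. Its log2 difference was 0.18 ± 0.09 (1.14-fold, 95% interval 0.99 to 1.30, adjusted p = 0.358). Chordc1 read 4.54, 4.88 and 5.65 in exercised mice and 3.77, 4.38 and 4.89 in sedentary mice on probe A_51_P305843, a log2 difference of 0.18 ± 0.08 (adjusted p = 0.257). In both genes the ranges overlapped, and sedentary s2m5 was the highest sedentary mouse. The second Chordc1 probe, A_52_P637199, was dimmer at 0.260, 0.302 and 0.351 against 0.195, 0.240 and 0.312, with a log2 difference of 0.33 ± 0.12 (adjusted p = 0.179).

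The start sites of the genes were searched for heat shock elements and ER stress elements in RefSeq windows of 250 bases before to 50 after each start (GRCm38.p6, both strands). Windows were matched for 8 of the 10 genes, 11 windows in all (not Hsp90aa1 and Hsp90ab1). The heat shock element was searched as 2 units, TTCNNGAA or GAANNTTC, and as 3 units, TTCNNGAANNTTC with its reverse complement GAANNTTCNNGAA. A 3-unit match holds 2-unit matches within it. A 2-unit match was in 15.1% of all 32851 windows, a 3-unit match in 0.603%, and the ER stress element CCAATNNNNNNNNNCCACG, the element known from the GRP94 promoter, in 0.119%. Counted by gene, the shares were 17%, 0.662% and 0.137% of 27025 genes.

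Of the 8 genes, 3 had a 2-unit match (Dnaja1 in 1 of 3 windows, Bag3 and Chordc1) and 1 a 3-unit match (Chordc1). Hsp90b1 had the ER stress element, and Trap1, Dnajb1, Ahsa1 and Stip1 had none of these letters in their windows. Shown are the Dnaja1 match, which belongs to a called gene, and the longest heat shock and ER stress matches, which belong to genes that were not called. Capitals mark the matches. The Dnaja1 stretch is bases -144 to -97 from the start (chr4:40722324-40722371, plus strand). The Chordc1 stretch is bases -7 to 23 (chr9:18292260-18292289, plus strand), in which overlapping matches form a run of 23 bases. The Hsp90b1 stretch is bases -232 to -69 (chr10:86705513-86705676, minus strand), with 1 match on each strand.
Dnaja1: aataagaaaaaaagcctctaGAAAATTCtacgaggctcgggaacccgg
Chordc1: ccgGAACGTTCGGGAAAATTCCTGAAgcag
Hsp90b1: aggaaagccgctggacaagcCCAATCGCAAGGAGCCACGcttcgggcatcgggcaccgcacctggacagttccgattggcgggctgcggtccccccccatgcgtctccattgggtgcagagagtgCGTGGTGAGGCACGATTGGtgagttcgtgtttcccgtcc
Dnajb1, which had the largest log2 difference, had no match in its 2 windows, and Chordc1, which had the longest heat shock match, had a log2 difference of 0.18 on its brighter probe. The search took exact letters only and had no window for Hsp90aa1 and Hsp90ab1. A relation between matches and responses was not tested.

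Levels varied among the exercised mice. Exercised s1m1 was the lowest exercised mouse for Hsp90aa1, for each Dnaja1 and Dnajb1 probe, for Bag3, for Stip1 and for both Chordc1 probes. Exercised s2m3 was the highest for each Dnaja1 and Dnajb1 probe, and exercised s1m5 was the highest for Hsp90aa1 and for the brighter probe of Hsp90ab1. Hsp90aa1 in s1m5 was at 62.6 times P75, against 24.2 in s1m1, and its SD was 0.56 log2 units among exercised mice and 0.27 among sedentary mice. The SDs of Dnaja1 were 0.43 in exercised and 0.29 in sedentary mice, and those of the brighter Dnajb1 probe ran the other way at 0.45 and 0.49. A difference in spread was not tested. Whether the mean response differed between the title sets was tested by an interaction, with 2 exercised arrays in set 1. It was called for 0 of the 16 probes, of which 0 had an unadjusted p below 0.05. The responses of the sets still differed by up to 0.69 log2 units, on Dnaja1 probe A_52_P310225, higher in set 2. In limma 0% of all probes were called for the interaction, and 1932 had an unadjusted p below 0.05.

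**Figure D3:**
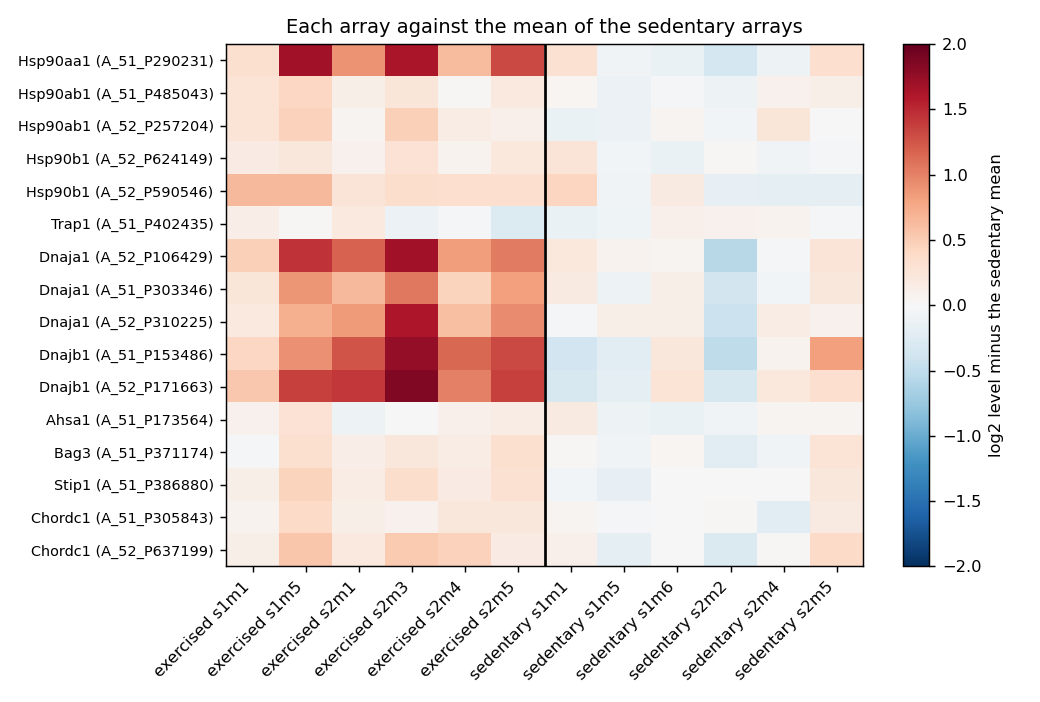
Log2 level of each of the 16 probes (rows) on each array (columns, exercised mice on the left) minus the mean of the sedentary arrays. Red is higher and blue lower: Hsp90aa1, Dnaja1 and Dnajb1 are deep red in exercised s2m3 and pale in exercised s1m1, while exercised s1m5 is deep red for Hsp90aa1 and the brightest Dnaja1 probe and lighter for the brighter Dnajb1 probe, and Trap1 stays near 0.

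With the group means removed, the genes varied together among mice to different degrees. Over the 45 pairs of genes Pearson's r across 12 arrays ran from -0.54 to 0.89 with a median of 0.41, as a description of arrays that share tissue, slide and scaling. The highest was Hsp90aa1 with Dnaja1 (r = 0.89, Spearman's rho = 0.87), followed by Hsp90aa1 with Bag3 (0.80 and 0.75). The lowest was Hsp90aa1 with Trap1 (-0.54 and -0.63). Bag3 followed Hsp90aa1 from mouse to mouse although it was not called between the groups.

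The genes outside the set whose levels followed Hsp90aa1 most closely within groups, among 13096 genes and with r over 12 arrays, were also mostly chaperones. They were Hspa1a (r = 0.95, rho = 0.96), an inducible HSP70 gene, Hspd1 (0.95 and 0.88), the mitochondrial chaperonin HSP60, and Hspa1b (0.94 and 0.92). Next came Dnajb4 (0.94 and 0.96), a close relative of Dnajb1, and Phlda1 (0.90 and 0.83). Hspd1 itself was not called, with a log2 difference of 0.17 (adjusted p = 0.326), at 68.1, 80.6 and 89.8 times P75 in exercised mice and 65.6, 68.7 and 76.9 in sedentary mice. Hsp90b1 had different neighbours, Cmtm3 (r = 0.90, rho = 0.82), Edem1 (0.90 and 0.93), Lasp1 (0.87 and 0.77), Gjb2 (0.86 and 0.80) and Cd79b (0.86 and 0.61). Edem1 acts in the disposal of misfolded proteins of the endoplasmic reticulum, and Cd79b is part of the B cell receptor. Sedentary s1m1, the high sedentary array of Hsp90b1, was also far the highest sedentary array of Cd79b, at 0.974 times P75 with the nearest at 0.212. The r of Cd79b may therefore rest largely on that array, and it was not computed without it.

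**Figure D4:**
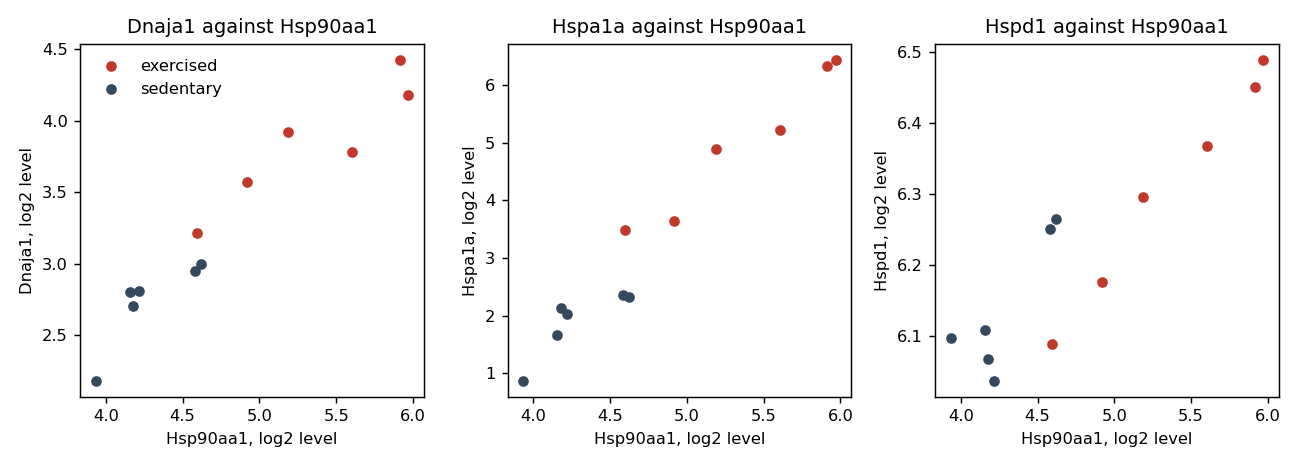
Level of Dnaja1, Hspa1a and Hspd1 (y axes) against Hsp90aa1 (x axis) on each of 12 arrays, in log2 relative to the array's 75th percentile; exercised mice in red, sedentary mice in blue-grey. All 3 genes are highest in the same 2 exercised mice, s1m5 and s2m3, and the Hspd1 groups overlap.

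The surrounding chaperone system was read through lists of genes, whose counts stand against 1.76% called higher and 1.76% called lower among all genes. Of 22 HSP70s, HSP110s and exchange factors tested, 3 were called higher and 0 lower, with a median log2 difference of 0.09. The HSP110 genes of this list were not called, with Hspa4l at 0.59 (adjusted p = 0.0721), Hsph1 at 0.47 (adjusted p = 0.0511) and Hspa4 at 0.13 (adjusted p = 0.352). Hspa1a, at 11.2, 33.5 and 86.6 times P75 in exercised mice and 1.83, 4.22 and 5.12 in sedentary mice, rose by 3.11 log2 units (8.63-fold, 95% interval 4.04 to 18.4, adjusted p = 0.00501). Hspa1b rose by 3.21 (9.26-fold, adjusted p = 0.00763), but the genes are nearly identical in sequence and the probes may read both. St13, the HSP70-interacting protein HIP, rose by 0.35 (1.28-fold, adjusted p = 0.0244), a call lost with slide as a block (adjusted p = 0.0546) and in 5 of 12 fits without 1 array. Those were the fits without exercised s1m5, exercised s2m3, sedentary s1m5, sedentary s2m2 or sedentary s2m4, with adjusted p up to 0.0571.

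Among 21 other HSP90 co-chaperones 1 was called higher and 0 lower, with a median of 0.07. It was Fkbp5, the glucocorticoid-induced immunophilin that acts on steroid receptors, at 2.55, 3.02 and 3.69 times P75 in exercised mice and 0.609, 1.16 and 1.76 in sedentary mice. The groups did not overlap, and the log2 difference was 1.42 ± 0.20 (2.68-fold, adjusted p = 0.00219; 0.00800 with slide as a block). Cacybp, which had the next smallest p, differed by 0.26 (adjusted p = 0.163). Of 38 other J-domain proteins, the wider HSP40 family, 2 were called higher and 0 lower, with a median of 0.02. Dnajb4 rose by 0.65 (1.57-fold, adjusted p = 0.0289) and Dnajb2 by 0.34 (1.26-fold, adjusted p = 0.0136). With slide as a block neither passed (adjusted p = 0.0964 and 0.0504). Dnajb4 was also lost in 6 of 12 fits without 1 array, those without exercised s1m5, s2m3 or s2m5 or sedentary s1m6, s2m2 or s2m4 (adjusted p up to 0.0680).

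The other 4 lists held 0 calls in either direction. Small heat shock proteins and BAG3 partners (11 tested) had a median of -0.03, with Hspb7 at 0.60 (adjusted p = 0.178) and Hspb1, which encodes HSP27, at 0.44 (adjusted p = 0.197). Heat shock factors and their regulators (4 tested) had a median of -0.12, with Hsf4 at -0.15 (adjusted p = 0.622) and Hsf2 at -0.17 (adjusted p = 0.727), the Hsf2 probe being above background on 3 of 6 arrays in each group. The endoplasmic reticulum list (18 tested), the compartment of Hsp90b1, had a median of 0.13 and a range of -0.36 to 0.28, with 12 genes above 0. Manf, a secreted protein of the unfolded protein response, was at 0.28 (adjusted p = 0.154), and Ero1a, the oxidase that drives disulphide formation, at 0.22 (adjusted p = 0.141). The mitochondrial list (9 tested), the compartment of Trap1, had a median of 0.05, with Hspe1, the co-chaperonin of HSP60, at 0.22 (adjusted p = 0.210).

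**Figure D5:**
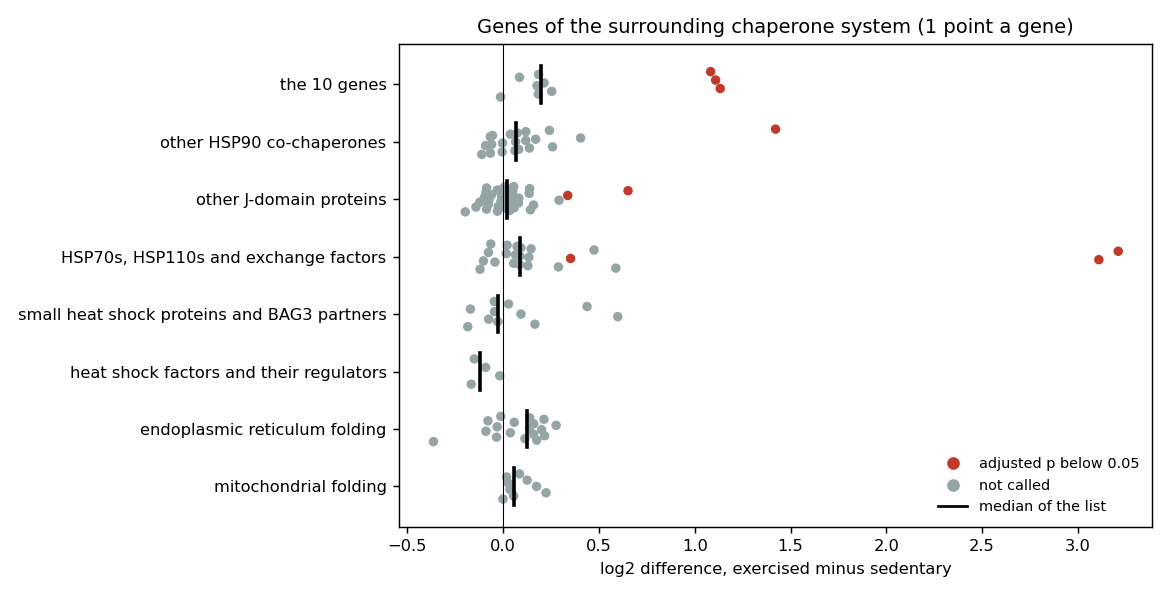
Log2 difference, exercised minus sedentary (x axis), of the 10 genes and of each gene of 7 related lists (rows; 1 point a gene, its height within a row is arbitrary). Red points were called, black lines are medians, and the called genes outside the 10 are Fkbp5, Dnajb2, Dnajb4, St13, Hspa1a and Hspa1b.

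Markers of another tissue moved with the same comparison. All 10 tendon markers tested had a log2 difference above 0, from 0.04 for Scx to 1.40 for Prg4, and 0 of them was called. Their mean level was 6.79 to 17.9 times P75 in exercised mice and 2.97 to 8.77 in sedentary mice, with no marker at background. The tendon score, the mean centred log2 level of the list, was 0.43 ± 0.54 in exercised mice and -0.43 ± 0.58 in sedentary mice (SD, n = 6 each). It was highest in exercised s2m3 (1.23), which was also highest for Dnaja1 and Dnajb1. The score was lowest in sedentary s2m2 (-1.53), which was also lowest for Hsp90aa1, Dnaja1, Dnajb1 and Bag3. With the score as a covariate, 0 of 10 genes and 0 of 16 probes were called, with 356 called over all probes. As the score differed between the groups, this fit takes out part of the group difference. It cannot tell tendon share from training. Hsp90aa1 was then at 0.76 (adjusted p = 0.242) and Dnaja1 at 0.78 (adjusted p = 0.122). Dnajb1 was at 0.79 (adjusted p = 0.259) on the brighter probe, through which it counted, and at 1.06 (adjusted p = 0.0762) on the second probe. Exercised s2m3 and sedentary s2m2 were the highest and lowest arrays of Dnaja1 and Dnajb1, so leaving them out lowers those differences in any case. Without those 2 arrays, 1 gene and 2 probes were called, with Dnaja1 at 0.88 (adjusted p = 0.0201) and the second Dnajb1 probe at 1.07 (adjusted p = 0.0198). The brighter Dnajb1 probe, at 0.91 (adjusted p = 0.0899), and Hsp90aa1, at 0.90 (adjusted p = 0.0896), were not called there. Brown adipocyte markers were uneven as well, with a score of 1.01 ± 1.64 in exercised mice and -1.01 ± 1.35 in sedentary mice over 3 markers tested, of which 0 was called. The log2 difference was 4.35 for Ucp1, which was above background on 5 of 6 exercised and 2 of 6 sedentary arrays, 1.79 for Cidea and -0.10 for Cox8b. All 5 Schwann cell markers (0.12 to 0.47) and all 3 blood cell markers tested (0.04 to 0.33) had log2 differences above 0, all 6 endothelial markers (-0.31 to -0.03) had them below 0, and 0 of these was called. The other lists were mixed, also with 0 called. Above 0 were 6 of 7 white adipocyte, 4 of 5 fibroblast, 2 of 6 leukocyte and 3 of 7 muscle fibre markers tested. The part of these markers in the results was not tested further.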

How the data were processed

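Per the file headers the authors' deposited scanner files, 1 for each of 12 arrays, come from Agilent Feature Extraction 10.5.1.1, while the submitters' processing notes name version 9.1. They give the linear intensity of each spot in 1 colour, corrected for background and trend within the array and not scaled between arrays. The deposited value table, used as an alternative, gave 100% of single-spot probes within 0.1% of that intensity.

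From these, control and outlier spots were left out, spots of a probe averaged, and log2 of the intensity taken minus the array's 75th percentile, with no pseudocount. A probe was kept if well above background on at least 6 of 12 arrays. Exercised was compared with sedentary in limma 3.58.1 (R 4.3.3, version 1.17.8 of data.table) over all 22919 probes kept, without covariates, with Benjamini-Hochberg adjustment and a call at an adjusted p below 0.05. A gene counted through its highest-mean probe. Slides 1, 2 and 3 held 1, 3 and 2 exercised and 3, 1 and 2 sedentary arrays. The number of arrays limits the precision.

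The 10 genes, the lists and the tests were chosen with earlier results of these data known. Genes named outside the 10 were, for each list, every called gene up to 6, or the 2 smallest p where fewer than 2 were called, and the 5 most alike to Hsp90aa1 and to Hsp90b1. The HSP110 genes of the HSP70 list were named in addition. The fit was tested on simulated data. Alternatives covered scaling, background correction, filters, variance models, blocks, the tendon score and leaving out each array. The tendon, capped-background and list alternatives were added after seeing the data.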

Additional observations from a re-analysis of the deposited data

Results flagged for a closer look

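In 74 groups of 6 arrays tested for a single distant value, 3 had one by Dixon's ratio, and chance alone gives about 1 in 20. For Dnaja1, sedentary s2m2 was far below the other sedentary mice on 2 of 3 probes. On probe A_52_P106429 it was at 4.53 times P75, with the nearest sedentary mouse at 6.50. On probe A_52_P310225 it was at 0.266, with the nearest at 0.350. This array also had the lowest tendon score of the 12, -1.53. For Cd79b, sedentary s1m1 was at 0.974 times P75, with the nearest sedentary mouse at 0.212. Cd79b was screened because it varied with Hsp90b1, which was also highest in that array among sedentary mice.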

How the results depend on the processing

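Against 3 genes, 6 probes, 759 probes over the array and 6 list genes called, normexp background correction gave 0, 0, 0 and 0. There, 4 arrays had spots with a local background above 10000 intensity units, and with it capped at the 99th percentile 3 genes, 8 probes, 586 probes and 7 list genes were called. With no filter on dim probes, which tests more probes, the counts were 1, 2, 394 and 3. Slide as a block gave 2 genes, 3 probes, 443 probes and 3 list genes, and with the tendon score in the model they were 0, 0, 356 and 1. Leaving out the arrays of highest and lowest tendon score gave 1, 2, 453 and 3. At an adjusted p below 0.10, 1281 probes were called over the array. The titles share 4 animal numbers between the groups, but same-numbered animals deviated together with r of 0.14, -0.18, 0.09 and 0.24, so the numbers were not taken to pair the mice. With that replicate block, on fewer arrays, 0 genes, 0 probes, 34 probes and 0 list genes were called. Fits without 1 array called 1 to 3 genes, 3 to 6 of their probes, 520 to 706 probes over the array and 4 to 8 list genes. The lowest counts of the genes and of their probes were without sedentary s2m2. Over the array the lowest count, 520, was without sedentary s2m4.

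Trap1 changed sign to 0.219 with normexp, 0.0309 with it capped, 0.004431 with the replicate block, 0.132 with the tendon score, 0.0225 without the tendon extremes, and ranged from -0.0548 to 0.0392 in fits without 1 array. Ero1a was at -0.00554 with normexp and Hsf4 at 0.0187 with the tendon score. The difference of Dnaja1 from Dnajb1 ranged from -0.136 to 0.0942 without 1 array and was -0.45 within slide 2, and that of Hsp90aa1 from Trap1 was 1.70 within slide 1. The second Hsp90b1 probe was called with trended robust variance (adjusted p = 0.0472), with capped normexp (0.0330), which also called Hsp90ab1 A_52_P257204 (0.0479), and with the title set as a block (0.00698), where Dnaja1 A_52_P310225 lost its call (0.0563). Without the filter Hsp90aa1 (adjusted p = 0.0583), the brighter Dnajb1 probe (0.06335), and Dnaja1 A_51_P303346 (0.0591) and A_52_P310225 (0.0941) were not called. Dnajb4 (0.0767), Dnajb2 (0.0540) and St13 (0.0804) also lost their calls there. With median scaling Dnajb2 (0.107) and St13 (0.114) were not called. The cause of these changes was not tested.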
